A study of Ictidomys tridecemlineatus with 15 samples.

Results

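The cytosolic ribosomal protein genes were followed at the level of transcription in liver of the 13-lined ground squirrel, a seasonal hibernator, with global run-on sequencing (GRO-seq). In this assay engaged RNA polymerases in isolated nuclei extend their transcripts for a few minutes with a labeled nucleotide, so the reads report nascent RNA and not the steady-state mRNA pool. Members were taken by name: transcription units named Rpl or Rps plus a number with at most 1 further letter or l1, or Rplp0, Rplp1, Rplp2 or Rpsa, with the Rps6 kinases left out. The table held 70 such units of 6324. Of these, 30 carried the name of 1 ribosomal protein gene alone (15 of the large, 60S, subunit and 15 of the small, 40S, subunit), 16 were merged with small nucleolar RNA (snoRNA) genes only, and 24 were merged with other genes. Results below are for the 30 single-name units unless merged units are named, because a read in a merged unit cannot be given to 1 gene.

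The study compared 5 physiological states of female animals from 1 breeding colony: summer active (SA), homeothermic and before the hibernation season; interbout aroused (IBA), rewarmed between torpor bouts; entrance into torpor (Ent), cooling; early torpor (ET) and late torpor (LT), both cold. The labels name no transgene and no drug for any group, give no age, and say that all animals carried implanted temperature recorders, from which the states were assigned. There were 3 libraries of SA, IBA, Ent and ET and 2 of LT, each from 1 animal. A further LT library had no column of counts and was not analysed here. The paper states that its quality was rather poor and that it was dropped as an outlier.

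Each ribosome needs 1 copy of nearly every ribosomal protein, and the cytosolic set is split between the small subunit, which decodes the mRNA, and the large subunit, which joins the amino acids. Their genes are short, highly transcribed, and scattered over the genome, and many host snoRNA genes in their introns. Their mRNAs begin with a pyrimidine-rich 5′ TOP motif through which the mTOR kinase controls their translation, so in many cells supply of the proteins is set at translation rather than at transcription. Protein synthesis is known to be strongly depressed in cold torpid animals and to resume at each arousal.

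Library totals lay between 3713883 and 8884763 counts, and every single-name member had at least 34 counts in every library. Levels are given as CPM, counts scaled to a fixed library total, after TMM scaling, which sets each library against the others by its typical unit. The paper states that scaling by library size hides shifts in total transcription between states. A rise or fall here is thus a change relative to the other units, and absolute output per cell was not measured. A change is called where edgeR's quasi-likelihood test, fitted to all 6324 units and 5 states with the Benjamini-Hochberg correction across every unit, gave an adjusted p at or under 0.05, with calls at 0.001 given beside them. Of 11 hepatocyte markers, 6 had single-name units, and their summed level was 9130 to 20159 CPM in SA, 8725 to 13360 in IBA, 7122 to 8184 in Ent, 3688 to 5939 in ET and 4692 to 6987 in LT. The 3 endothelial markers with a unit summed to 199 to 228 CPM in IBA and 135 to 148 in LT, and the cholangiocyte marker Sox9 was at 16.5 to 36.0 CPM in IBA and 7.07 to 10.1 in LT. From IBA to LT 4 of the 6 hepatocyte markers, 2 of the 3 endothelial markers and Sox9 fell at 0.05, where 25.0% of all units fell. None of the leukocyte, stellate or erythroid markers had a unit of its own, and the part of cell composition in the results was not tested. Fewer cells of a type and less nascent RNA per cell cannot be told apart in whole liver.

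The 30 single-name units lay on 13 chromosomes and measured 3375 to 14724 nt (median 7732 nt), after the authors had removed the first 500 nt. Where the transcribed region seen by GRO-seq in any state ran further 3′ than the annotation, the authors extended the unit to it. Per length the members lay above most genes: their mean level over the 5 states ran from 2.80 to 12.3 CPM per kb (median 4.97), all 30 lay above the median of all 4705 single-name units (2.16 CPM per kb), and 85.1% of those units lay below the members' median. Rps29 (12.3 CPM per kb), Rpl9 (8.68) and Rps27 (7.86) were the highest, and Rps24 (2.80), Rpl22l1 (3.24) and Rps7 (3.27) the lowest. The other single-name units were longer (median 36578 nt), and levels per length were not compared with units of like length.

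Among the 5 states, 14 of 30 members were called at 0.001 and 27 of 30 at 0.05, where 25.5% and 62.0% of all units were called. DESeq2 called 24 of 30 at 0.001, against 50.0% of all units. The summed level of the 30 units was 758 to 1048 CPM in SA, 1008 to 1095 in IBA, 1351 to 1497 in Ent, 1613 to 1745 in ET and 1342 to 1470 in LT, so every Ent, ET and LT library lay above every SA and IBA library. This sum gives most weight to the units with most reads. From IBA to LT the mean of Rpl34 went from 50.5 to 177 CPM and that of Rpl9 from 65.0 to 176. Over the same comparison 18 of the 30 had a negative log2 value and 12 a positive one. Of the 30, 13 had their highest mean in ET, 12 in Ent, 4 in LT (Rpl9, Rpl34, Rpl37a and Rpl26) and 1 in IBA (Rps24). Their lowest mean fell in LT for 15, in SA for 14 and in IBA for 1 (Rps16). Rpl34, Rpl15, Rps27a, Rplp1, Rpl9 and Rpl37a had the 6 smallest p-values (edgeR adjusted p = 5.71e-06 to 7.49e-05).

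**Figure D1:**
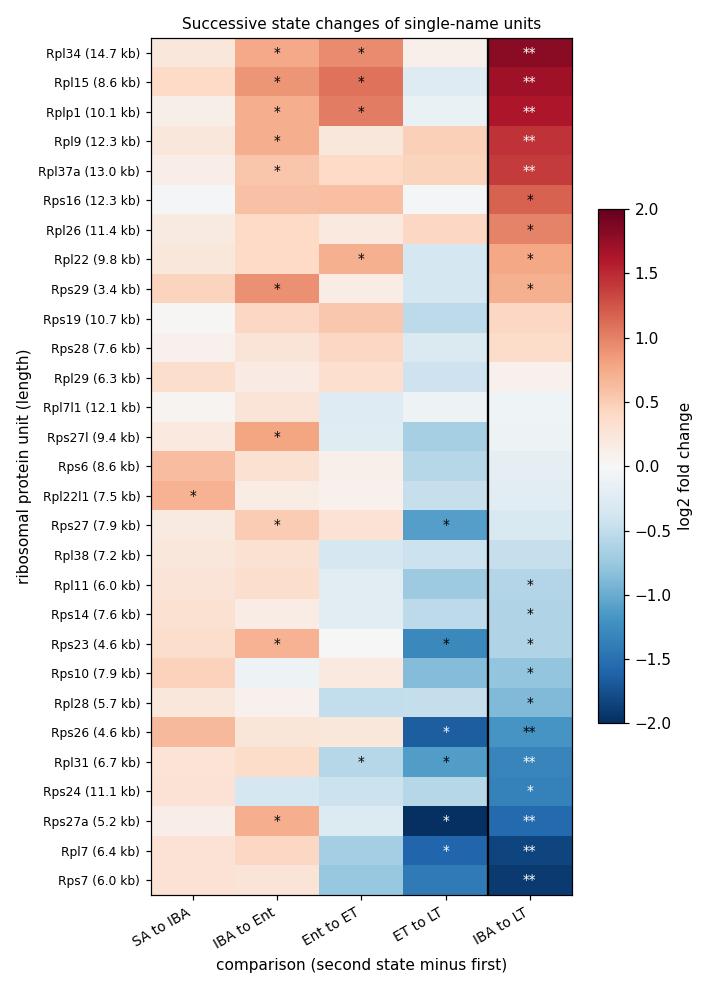
Each of 29 rows is a single-name ribosomal protein unit with its length, each column a comparison, and the color the log2 fold change of the second state over the first. One asterisk marks an edgeR adjusted p at or under 0.05 and 2 mark 0.001. Most units are red from IBA to Ent and blue from ET to LT.

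From IBA to LT, which sets the warm and the cold end of a torpor bout against each other, 9 members rose and 12 fell at 0.05, where 24.8% of all units rose and 25.0% fell. At 0.001, 5 rose and 6 fell, against 9.69% and 7.73% of all units. The median over the 30 was -0.20 on the log2 scale, with a range from -1.92 to 1.81, and the median of all units was -0.05. Of the 9 that rose 7 code for 60S proteins (Rpl34, Rpl15, Rplp1, Rpl9, Rpl37a, Rpl26 and Rpl22), and of the 12 that fell 8 code for 40S proteins (among them Rps7, Rps27a, Rps24, Rps26, Rps10, Rps23 and Rps14). Rps16 and Rps29 rose among the 40S genes (Rps29 had an adjusted p of 0.472 without LT replicate 1 and 0.0786 without IBA replicate 1), and Rpl7, Rpl31, Rpl28 and Rpl11 fell among the 60S genes. The 2 subunits were not tested against each other. Without LT replicate 1, 7 rose and 7 fell at 0.05 and only 1 member passed 0.001, and with the season of collection as a covariate (ET left out) 7 rose and 8 fell and 1 passed 0.001. All IBA animals came from 1 season and all LT animals from another, and that fit rests on the SA and Ent animals, which came from both.

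Rpl34, a 60S protein, showed the largest rise. Its unit on chromosome 15 (12093521 to 12108244, minus strand, HiC_Itri_2 assembly) is the longest of the 30. It was read at 47.2, 44.8 and 37.7 CPM in SA, 51.2, 52.3 and 48.1 in IBA, 68.0, 82.5 and 107 in Ent, 156, 189 and 149 in ET, and 191 and 162 in LT. No library of Ent, ET or LT overlapped one of SA or IBA, and the torpid libraries stood above all Ent libraries. The rise from IBA to LT was 3.5-fold (log2 1.81, SE 0.19, edgeR adjusted p = 2.09e-05).

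Rpl15, also of the 60S subunit, was likewise higher in the cold. It held 21.2, 17.1 and 17.0 CPM in SA, 19.3, 30.3 and 22.7 in IBA, 31.5, 50.9 and 50.7 in Ent, 94.1, 99.0 and 88.9 in ET, and 87.2 and 69.4 in LT. The ET libraries were the highest and did not overlap those of any other state. LT was 3.24-fold above IBA (log2 1.70, SE 0.23, edgeR adjusted p = 0.000116), and over warm (SA and IBA) against torpid (ET and LT) animals Rpl15 showed the largest change of the family, 4.07-fold (adjusted p = 6.21e-07).

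Rplp1 codes for an acidic protein of the P stalk, the arm of the 60S subunit that recruits the elongation factors. It was at 30.6, 34.7 and 20.6 CPM in SA, 30.1, 29.1 and 33.4 in IBA, 41.6, 62.3 and 48.8 in Ent, 109, 105 and 95.4 in ET, and 113 and 76.1 in LT. The 2 LT libraries differed, yet both lay above every Ent library, and LT was 3.07-fold above IBA (SE of the log2 value 0.24, edgeR adjusted p = 0.000165).

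Rpl9 and Rpl37a, both 60S proteins, had their highest means in LT. Rpl9 held 61.8 to 69.8 CPM in the IBA libraries, 122 to 135 in ET, and 207 and 146 in LT, 2.71-fold above IBA (edgeR adjusted p = 5.74e-05). Rpl37a held 47.7 to 56.2 CPM in IBA, 93.1 to 106 in ET, and 161 and 109 in LT, 2.63-fold above IBA (adjusted p = 9.49e-05). For both, the step from ET to LT did not pass the test (adjusted p = 0.431 for Rpl9 and 0.523 for Rpl37a), and LT replicate 1 was the higher of the pair.

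Rps7, a 40S protein also known to bind the p53 regulator MDM2, showed the largest fall. It was read at 15.4, 30.5 and 15.6 CPM in SA, 19.3, 24.7 and 30.0 in IBA, 32.1, 29.5 and 27.1 in Ent, 16.6, 18.3 and 17.6 in ET, and 5.14 and 7.95 in LT. The LT libraries lay below all others, and Rps7 was 3.77-fold lower in LT than in IBA (log2 -1.92, SE 0.33, edgeR adjusted p = 0.000535). Its lowest library still held 34 reads.

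Rpl7, a 60S protein, held 42.1, 37.2 and 32.7 CPM in IBA, 53.9, 47.3 and 48.3 in Ent, 25.9, 37.1 and 30.8 in ET, and 6.80 and 14.0 in LT. It was 3.57-fold lower in LT than in IBA (log2 -1.84, SE 0.29, edgeR adjusted p = 0.000318), with both LT libraries under every other library. The log2 value was -2.45 without LT replicate 3.

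Rps27a is made as a fusion of ubiquitin with a 40S protein and is thus a source of ubiquitin as well. It was at 25.8, 32.2 and 23.8 CPM in SA, 30.4, 29.1 and 30.2 in IBA, 49.8, 49.1 and 48.9 in Ent, 37.3, 49.9 and 34.6 in ET, and 11 and 9.28 in LT. The Ent libraries stood above all SA and IBA libraries and the LT libraries below all others. In Ent it was 1.65-fold higher than in IBA (edgeR adjusted p = 0.0157), and from ET to LT it was 3.99-fold lower (log2 -2.0, SE 0.21, adjusted p = 0.00257).

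Rps26, at the mRNA exit channel of the 40S subunit, had its drop at the same late step. Its levels were 11.1, 16.2 and 12.1 CPM in SA, 19.3, 21.3 and 20.8 in IBA, 23.5, 28.1 and 21.3 in Ent, 30.6, 31.0 and 23.8 in ET, and 9.22 and 8.84 in LT. The mean was highest in ET, none of the 3 steps before it passed the test, and it was 3.15-fold lower in LT (log2 -1.65, SE 0.23, edgeR adjusted p = 0.0208). Rpl31 had 43.5, 40.6 and 42.3 CPM in IBA, 52.8, 55.8 and 55.0 in Ent, 36.2, 41.4 and 32.9 in ET, and 13.8 and 20 in LT, and fell at both cold steps (Ent to ET log2 -0.57, adjusted p = 0.0271, and ET to LT log2 -1.12, adjusted p = 0.0458).

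**Figure D2:**
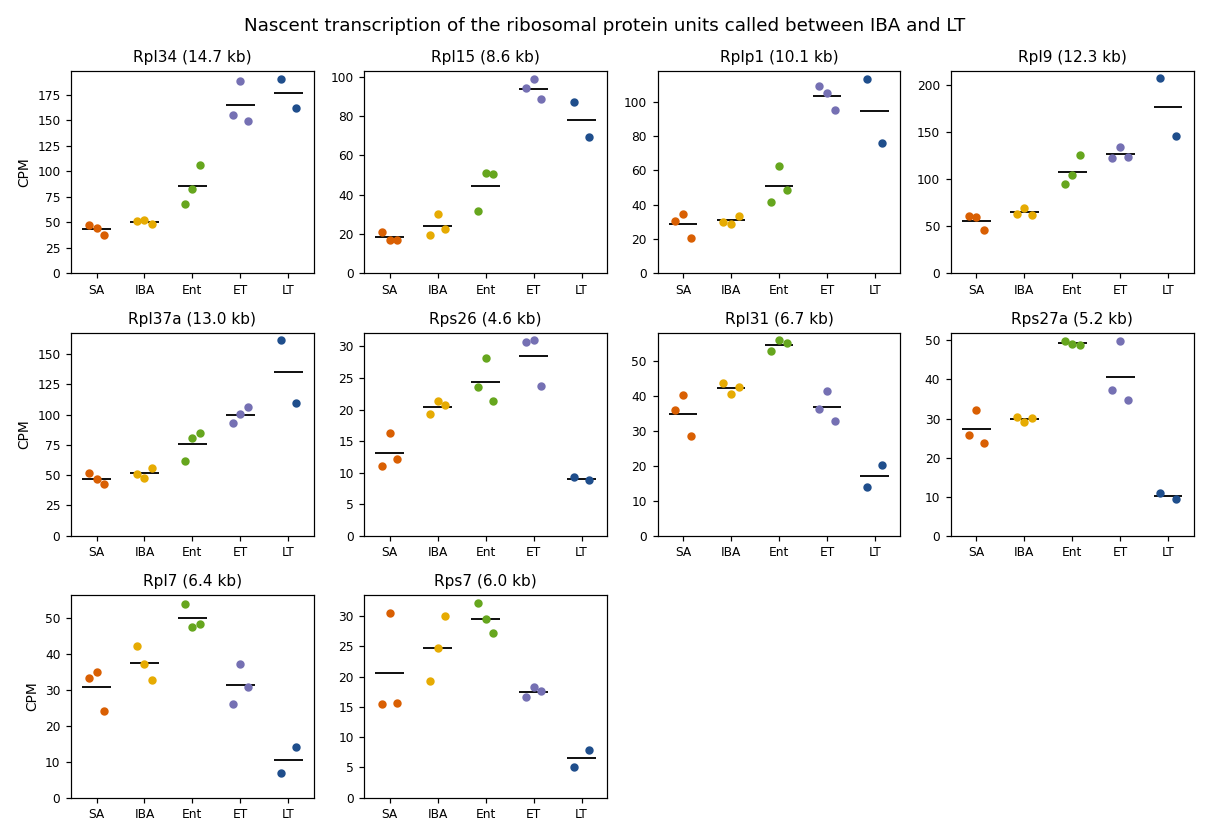
Each panel shows 1 of 10 units called between IBA and LT at an adjusted p at or under 0.001, with a point per library, the state on the x axis, CPM on the y axis from 0, and a bar at the state mean. Rpl34 climbs from 48.1 to 52.3 CPM in IBA to 162 and 191 in LT, and Rps27a peaks at 48.9 to 49.8 CPM in Ent and drops to 9.28 and 11 in LT.

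The direction from IBA to LT moved with the length of the unit, a measure the choice of members did not use. Unit length was set in part by regions transcribed in any state, the torpid ones included, so it is not independent of these reads. The 9 units that rose measured 3375 to 14724 nt (median 11449 nt), the 12 that fell 4556 to 11149 nt (median 6021 nt), and the 9 that did not pass 6341 to 12112 nt (median 7851 nt). Across the 30 members Spearman's rho of length and log2 fold change was 0.65 from IBA to LT and 0.71 from ET to LT. These points share the same libraries and are no independent replicates, so the values are a description. With only 1 LT library kept, rho was 0.65 (without LT replicate 1) and 0.60 (without LT replicate 3) from IBA to LT. Among 775 other single-name units in the same length range rho was 0.19 and 0.18.

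Of the 11 members under 7 kb, 9 fell from IBA to LT, 1 rose (Rps29) and 1 did not pass (Rpl29). Of 170 other single-name units under 7 kb, 48.2% fell and 11.8% rose, so short units of other genes leaned the same way. Of the 9 members of 10 kb or more, 6 rose, 1 fell (Rps24) and 2 did not pass (Rps19 and Rpl7l1), where 33.1% of 435 other units from 10 kb to the longest member rose and 25.5% fell. The 10 members between these lengths gave 2 rises (Rpl15 and Rpl22) and 2 falls (Rps10 and Rps14). Reads along a unit were not split here, so the part of polymerases beyond the 3′ end in these changes was not tested.

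**Figure D3:**
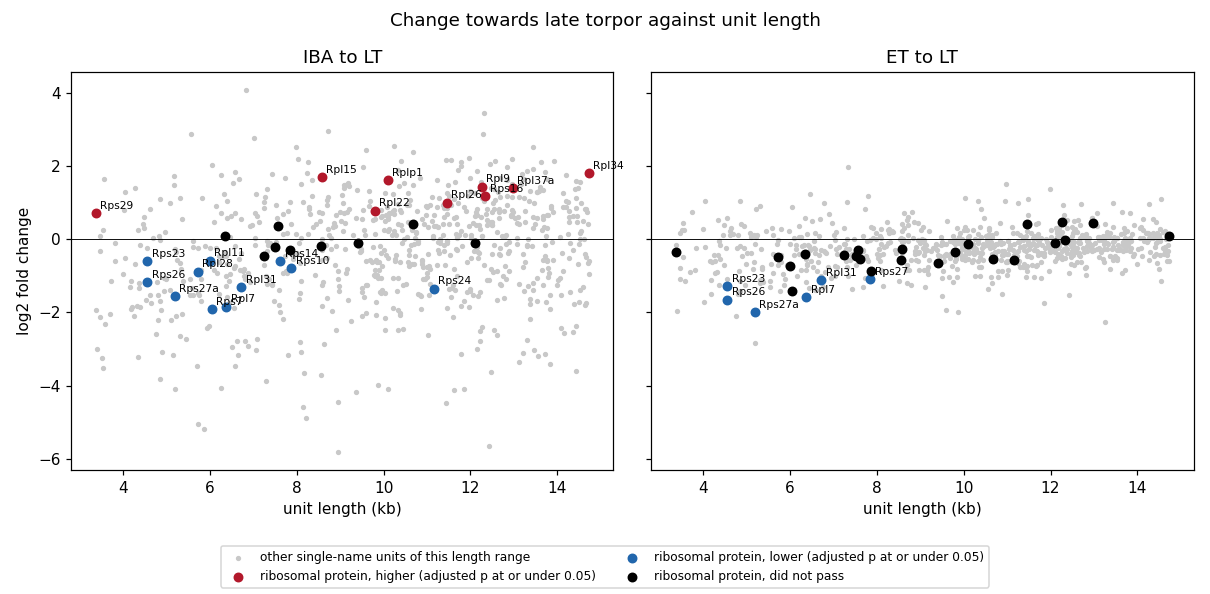
The x axis gives unit length in kb and the y axis the log2 fold change from IBA to LT (left) and from ET to LT (right), with 29 ribosomal protein units in color or black and 775 other single-name units of the same length range in gray. On the left the short members sit mostly below 0 and the long ones mostly above, with Rps29 (3.38 kb) and Rps24 (11.1 kb) against that order.

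The steps between neighboring states place these changes in the bout. From SA to IBA, which compares the summer and the winter warm state, 29 of 30 log2 values were positive with a median of 0.24, while the median of all units was -0.02. Rpl22l1 alone rose at 0.05, where 2.37% of all units rose and 2.85% fell, and no member was called at 0.001 by edgeR or by DESeq2 (3.50% of all units by DESeq2). At an unadjusted p under 0.05 edgeR gave 5 of 30, a share below that of all units (22.0%), and DESeq2 called 3 at an adjusted p of 0.05 (10.9% of all units). All 3 IBA libraries lay above all 3 SA libraries for 10 of 30 members and for 14.3% of all units.

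From IBA to Ent, as animals cooled, 10 members rose and none fell at 0.05, where 8.76% of all units rose and 7.34% fell. The median was 0.40 against 0.00 for all units, 28 of 30 values were positive, and for 19 members every Ent library lay above every IBA library, as for 22.5% of all units. Rps29 rose most (25, 29.7 and 29.7 CPM in IBA and 51.6, 55.9 and 52.2 in Ent, 1.89-fold, edgeR adjusted p = 0.0159), followed by Rpl15 (1.84-fold, 0.0175) and Rps27l (1.73-fold, 0.0358). Rpl34, Rpl9, Rps27a, Rplp1, Rps23, Rpl37a and Rps27 rose 1.42- to 1.70-fold. These calls lay near the threshold: none passed 0.001 in edgeR, 13 had an unadjusted p under 0.05 (32.5% of all units), DESeq2 called 3 at 0.001 (7.07% of all units), and without IBA replicate 1 the test called 1 member at 0.05. Rpl15, Rps27l, Rplp1, Rpl37a and Rps27 missed 0.05 without IBA replicate 3 or Ent replicate 2 or 3 (edgeR adjusted p = 0.0638 to 0.146). Rps27a missed it without any 1 of the IBA libraries (0.0522 to 0.0551). With the season of collection as a covariate (ET left out) 3 rose.

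From Ent to ET 4 members rose (Rpl15, Rplp1, Rpl34 and Rpl22) and 1 fell (Rpl31), against 15.3% and 13.4% of all units. With library sizes set by mapped reads 6 rose and 0 fell, and DESeq2 gave 5 and 3. Rpl31 missed 0.05 without any 1 of the Ent libraries or without ET replicate 1 or 3 (adjusted p = 0.0568 to 0.0976). Rpl15 rose 2.12-fold (edgeR adjusted p = 0.00284), Rplp1 2.03-fold (0.00425) and Rpl34 1.92-fold (0.00192). Rpl22, at 34.7, 32.0 and 37.2 CPM in Ent and 63.3, 53.8 and 53.5 in ET, rose 1.64-fold (adjusted p = 0.00616). No member passed 0.001 in edgeR, 12 had an unadjusted p under 0.05 (40.5% of all units), and DESeq2 called 4 at 0.001 (14.8% of all units), so both counts lay near the share of all units. All ET animals came from 1 hibernation season that no other state shares, so season and state cannot be told apart for the comparisons with ET.

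From ET to LT, within torpor, few units of the table were called. Of 6324 units 17 fell (0.269%) and 0 rose (0.00%), and 6 of the 17 were single-name members: Rps27a, Rps26, Rpl7, Rps23, Rpl31 and Rps27. The other 11 included no merged member. The 17 units measured 4281 to 10648 nt. Rps23, which codes for a protein of the decoding center, was 2.44-fold lower (30.8, 36.3 and 28.7 CPM in ET, 12.8 and 13.3 in LT, edgeR adjusted p = 0.0458), and Rps27 was 2.14-fold lower (85.1, 108 and 81.1 CPM in ET, 40.2 and 45.2 in LT, adjusted p = 0.0261). For 21 of 30 members both LT libraries lay below all 3 ET libraries, as for 13.1% of all units, and the median log2 value was -0.50 against -0.01 for all units. All 15 of the 40S units had negative values, as did 11 of the 15 60S units. No member passed 0.001 in edgeR, 17 had an unadjusted p under 0.05 (8.70% of all units), and DESeq2 called 7 at 0.001 (0.585% of all units). Without LT replicate 1 edgeR called no unit of the table at 0.05, and Rps27a was then -2.12 on the log2 scale (adjusted p = 0.0572), and without LT replicate 3 it called 3 of the 30. Rpl31 and Rpl7 missed 0.05 without most single libraries (adjusted p up to 0.653 and 0.627, without LT replicate 1), and Rpl7 was -2.19 on the log2 scale without LT replicate 3. Rps27 missed it without IBA replicate 2 or 3, Ent replicate 1 or 2, ET replicate 2 or either LT library (adjusted p = 0.0517 to 0.627), and Rps26 without ET replicate 2 or either LT library (0.0517 to 0.31). Of the 11 members under 7 kb 5 fell at this step, against 4 of 170 other single-name units of that length.

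Over warm against torpid animals 15 members rose and 7 fell at 0.05 (30.8% and 33.7% of all units), and 9 rose and 2 fell at 0.001 (18.6% and 17.6%). With library sizes set by mapped reads these were 17 and 4 at 0.05. The rises at 0.001 were Rpl15, Rpl34, Rplp1, Rpl9, Rpl37a, Rps16, Rps29, Rpl22 and Rpl26, and the falls Rps7 and Rps24. Rps24 had every ET and LT library under every SA and IBA library: 29.6, 49.8 and 28.4 CPM in SA, 37.8, 44.9 and 48.2 in IBA, 21.9, 27.5 and 26.8 in ET, and 15.0 and 19.3 in LT (log2 -0.92, SE 0.18, edgeR adjusted p = 0.000585). Rps26, lower in LT and higher in ET than in IBA, had a log2 value of -0.03 (adjusted p = 0.869). The comparisons above share libraries, so their calls are not independent of each other.

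Rpl11 belongs to the 5S particle that links ribosome assembly to p53, and Rps6 is the substrate of S6 kinase. Rpl11 held 26.4, 22.8 and 30.8 CPM in IBA, 33.4, 38.2 and 30.7 in Ent, 25.5, 31.6 and 31.1 in ET, and 15.4 and 20 in LT. It fell 1.51-fold from IBA to LT (edgeR adjusted p = 0.0379), and its adjusted p was 0.251 without LT replicate 1. Rps6 held 24.2, 30.3 and 29.2 CPM in IBA, 36.5, 36.9 and 36.9 in ET, and 24.5 and 25 in LT, a log2 change from IBA to LT of -0.17 (adjusted p = 0.544).

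A paralog with a unit of its own was present for Rpl22, Rpl7 and Rps27. Rpl22 rose from IBA to LT 1.71-fold (25.6, 27.2 and 25.7 against 37.5 and 52.1 CPM, edgeR adjusted p = 0.00329), while Rpl22l1, at 24.4, 25.5 and 26.5 CPM in IBA and 17.4 and 26.4 in LT, had a log2 value of -0.22 (adjusted p = 0.347). Rpl22l1 was instead the 1 member called from SA to IBA, from 15.4, 17.3 and 14.9 CPM to the IBA values above (1.61-fold, adjusted p = 0.0366). This call was lost without SA replicate 1 or 3, any 1 of the 3 IBA libraries, Ent replicate 1 or 2, or ET replicate 3 (adjusted p = 0.0506 to 0.134). Rpl22 had an adjusted p of 0.061 without LT replicate 3.

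Rpl7 fell, as above, while Rpl7l1 lay between 57.0 and 82.1 CPM in all 14 libraries and was not called among the 5 states (adjusted p = 0.144). Rps27 and Rps27l, a p53 target gene, both rose from IBA to Ent (1.42- and 1.73-fold). Both calls were lost without any 1 of the IBA libraries or without Ent replicate 2 or 3 (edgeR adjusted p = 0.0716 to 0.122). From ET to LT Rps27 fell, and Rps27l had a log2 value of -0.66 (adjusted p = 0.469). The differences within pairs were not tested, and closely related copies can lose reads because only unique alignments were kept.

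**Figure D4:**
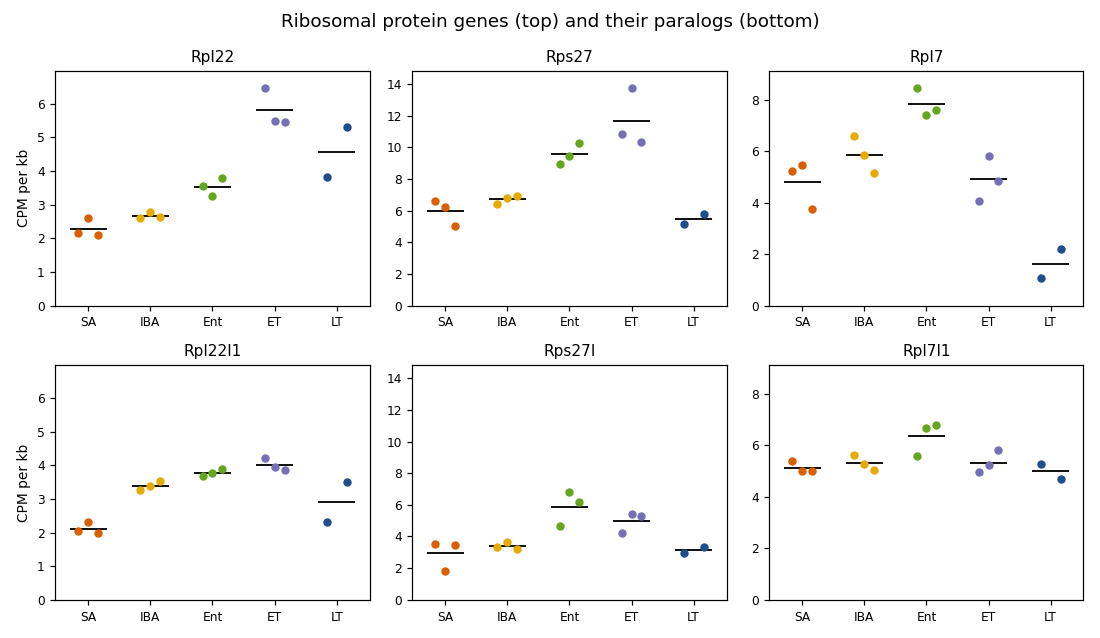
Level per length (CPM per kb, y axis from 0 and shared within a column) of 3 ribosomal protein genes (top) and their paralogs (bottom) by state, with a point per library and a bar at the state mean. Rpl7 falls to a mean of 1.63 CPM per kb in LT and Rpl7l1 has a mean of 4.99.

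In the 16 units merged with snoRNA genes only, the SA libraries lay far apart. Their summed level was 2180, 4007 and 5976 CPM in the 3 SA libraries, 1993 to 2784 in IBA, 1913 to 3110 in Ent, 1401 to 2724 in ET, and 2272 and 2232 in LT. All 16 had a negative log2 value from SA to IBA (median -0.56), where 29 of 30 single-name units were positive and 3348 of all 6324 units negative. None was called by edgeR at 0.05, where 2.37% of all units rose and 2.85% fell. At an unadjusted p under 0.05 edgeR gave 7 (22.0% of all units), and DESeq2 called 3 at an adjusted p of 0.05 (10.9% of all units). For 3 of the 16 all IBA libraries lay below all SA libraries, as for 13.6% of all units.

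The unit of Rps12 and snoRNA genes held 177, 354 and 739 CPM in SA and 146, 208 and 226 in IBA. SA replicate 3 was the highest library, and SA replicate 1 lay within the IBA range. Among the 5 states 1 of the 16 was called at 0.001 and 6 at 0.05, both under the shares of all units (25.5% and 62.0%). The unit called at 0.001 held Rpl39, at 21.9, 21.9 and 22.8 CPM in IBA, 41.2, 37.9 and 42.7 in Ent, and 59.6, 52.6 and 50.8 in ET (IBA to Ent 1.83-fold, edgeR adjusted p = 0.00909).

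Rpl5, the partner of Rpl11 in the 5S particle, lay in a unit with snoRNA genes as well. This unit held 40.9, 33.4 and 36.2 CPM in IBA and 83.3 and 57.0 in LT, a 1.90-fold rise (edgeR adjusted p = 0.00247), where the single-name unit of Rpl11 fell. From IBA to LT the Rpl5 and Rpl39 units were the 2 of 16 that rose, and none fell, against 24.8% and 25.0% of all units.

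**Figure D5:**
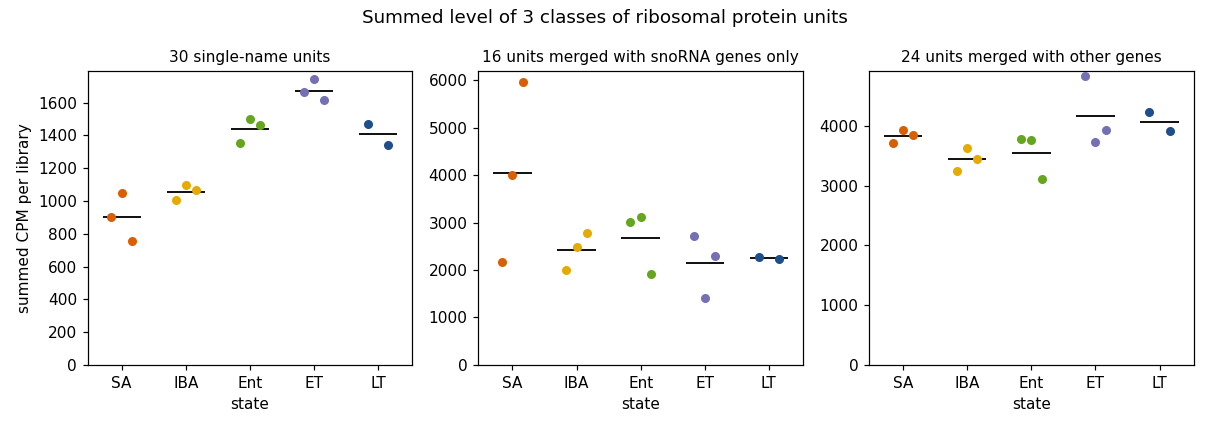
Summed CPM per library (y axis from 0) for the 30 single-name units, the 16 units merged with snoRNA genes only, and the 24 merged with other genes, by state, with a bar at the state mean. The SA libraries of the snoRNA class spread from 2180 to 5976 CPM, and the single-name class peaks in ET at 1613 to 1745 CPM.

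Of the 24 units merged with other genes, 9 rose and 3 fell from IBA to LT at 0.05 (24.8% and 25.0% of all units), and 4 were called among the 5 states at 0.001 (25.5% of all units). From IBA to LT with library sizes set by mapped reads 11 rose and 1 fell. The 3 merged units with the smallest p-values among the 5 states were those of Rpl21 (with Rasl11a and SNORD102), Rpl14 (with Znf619) and Rplp2 (with SNORA52, Pnpla2, Cracr2b and Cd151). The Rpl21 unit went from 75.6, 97.6 and 92.8 CPM in IBA to 236, 284 and 209 in ET and 198 and 176 in LT (IBA to LT 2.11-fold, edgeR adjusted p = 0.00128). The Rpl14 unit went from 48.9, 53.1 and 54.8 CPM in IBA to 106 and 91.8 in LT (1.89-fold, adjusted p = 0.000725).

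The other genes of the P stalk and the laminin receptor protein lay in such units. The unit that holds Rplp2, the dimer partner of Rplp1, was at 114, 177 and 168 CPM in IBA and 303 and 335 in LT (2.08-fold, edgeR adjusted p = 0.00203). Rplp0, the base of the stalk, shares its unit of 73201 nt with Gcn1, and that unit had 148, 148 and 146 CPM in IBA and 185 and 180 in LT (log2 0.31, adjusted p = 0.0771). The Rpsa unit held 132, 138 and 171 CPM in IBA and 122 and 127 in LT (log2 -0.24, adjusted p = 0.446).

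Other genes of ribosome supply gave a background for the family, on lists chosen for their function. For each list below, 24.8% of all units rose and 25.0% fell from IBA to LT, with a median of -0.05. Of 35 ribosome assembly factors with a unit of their own, 15 rose and 3 fell from IBA to LT at 0.05, with a median of 0.17. Wdr3, of the small-subunit processome, went from 52.9 to 197 CPM in the state means (log2 1.89, SE 0.20, edgeR adjusted p = 2.33e-05), and Sbds, which helps to release the factor eIF6 from the 60S subunit, from 22.9 to 84.9 (log2 1.88, adjusted p = 6.32e-05). Emg1, an 18S ribosomal RNA methyltransferase, fell from 36.4 to 8.32 CPM (log2 -2.13, adjusted p = 0.000183), and Bms1, a processome GTPase, from 55.1 to 28.4 (log2 -0.96, adjusted p = 0.00247). From ET to LT none of the 35 was called by edgeR, where 0.269% of all units fell and 0.00% rose, and DESeq2 called 2 lower.

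Among 6 genes of RNA polymerase I and its factors, 3 rose and 2 fell from IBA to LT, and 3 and 1 with library sizes set by mapped reads. Twistnb, a subunit of the enzyme, rose by 1.69 on the log2 scale (edgeR adjusted p = 1.43e-05) and Ttf1, its termination factor, by 0.68 (0.00219), while Polr1d fell by 1.23 (0.00174) and Polr1a, the largest subunit, by 0.79 (0.0212). Among 10 other genes with 5′ TOP mRNAs, 3 rose and 2 fell. Hnrnpa1 (log2 1.93, adjusted p = 1.42e-05) and Eif3f (1.37, 2.24e-05) rose most, and Eif3k (-0.76, 0.021) and Eif3e (-0.70, 0.0204) fell. With library sizes set by mapped reads none of the 10 fell.

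Of 4 genes of the mTOR pathway, 2 rose from IBA to LT and none was called lower. The rises were Eif4ebp2, an mTOR target that holds back cap-dependent translation (202 to 527 CPM in the means, log2 1.38, edgeR adjusted p = 0.000225), and Tsc1, an mTOR inhibitor (log2 0.37, adjusted p = 0.0333). Ddit4, also an mTOR inhibitor, went the other way from IBA to LT (log2 -1.94) but did not pass the test. Of 12 mitochondrial ribosomal protein genes with a unit of their own, 2 rose (Mrps18a, log2 0.81, adjusted p = 0.00141, and Mrpl19, 0.71, 0.0349) and 2 fell (Mrpl14, -3.04, 1.42e-05, and Mrpl22, -0.54, 0.0273), with a median of -0.01. None of the 12 was called from ET to LT by edgeR, where 0.269% of all units fell and 0.00% rose, or by DESeq2. With so low a share, no call in a list of this size is near that of all units. With library sizes set by mapped reads 5 rose and 1 fell. The difference between the cytosolic and the mitochondrial set was not tested.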

How the data were processed

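Frozen liver nuclei of female 13-lined ground squirrels were run on with a labeled nucleotide, and the authors deposited raw counts per transcription unit. Per the study's methods the authors trimmed reads with cutadapt, aligned them with BWA to HiC_Itri_2, extended gene annotations 3′ by fstitch segments merged over all states, joined overlapping genes into one unit, removed the first 500 nt, and counted unique reads with featureCounts. Versions of these tools are not given in the sources used here. Of 15 samples described, 14 had a column, and 0 columns of per-sample values were left unused.

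The deposited counts were fitted with edgeR 4.0.16 in R 4.3.3 (TMM, quasi-likelihood test, 5 states, no filter). CPM used TMM-scaled library sizes, and an SE is the size of the log2 fold change over the root of the test's F value. Totals were 3713883 to 8884763 counts, and the thinnest value of a single-name member rested on 34. Each library came from its own animal. Replicate numbers were not used to pair the libraries in the main fit. Alternatives were DESeq2 1.42.0, upper-quartile scaling, library sizes from mapped reads, a minimum of 10 counts, single-name units only, a replicate block, season of collection, and each library left out. Season and mapped reads came from the study's animal and sequencing tables. The fit was tested on simulated data with known changes. All 71 member names matched RefSeq symbols. The members and lists were chosen with earlier results of these data known. By rule, values were given for up to 3 largest rises and falls at 0.05 in each comparison, the 6 smallest p-values among the 5 states, the stalk, 5S, S6, ubiquitin and paralog genes, the 3 highest and lowest per kb, merged units by p or those names, and up to 2 changes each way in other lists. Values for other members and for Ddit4 were added after they were seen. Values of 2 units are not reported here, and 1 of them is left out of the plots.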

Additional observations from a re-analysis of the deposited data

How the results depend on the processing

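At an adjusted p of 0.05 in place of 0.001 the single-name members called numbered 27 among the 5 states (14 at 0.001), 1 for SA against IBA, 10 for the step into Ent, 5 for the step into ET, 6 for the step into LT, 21 from IBA to LT and 22 from warm to torpid. DESeq2 at 0.001 called 24 among the 5 states, 3 at the step into Ent, 4 at that into ET and 7 at that into LT. Upper-quartile scaling left 3 members lower from ET to LT at 0.05. Library sizes from mapped reads moved the median of all units to 0.144 (IBA to Ent), 0.105 (Ent to ET), 0.136 (IBA to LT) and 0.184 (warm to torpid) on the log2 scale and left 4 members lower from warm to torpid. They turned the sign of 3 values from IBA to LT that had not passed the test, Rpl7l1 (0.092), Rps27l (0.078) and Rps6 (0.0082). With season as a covariate 1 member passed 0.001 from IBA to LT and 3 were higher at 0.05 from IBA to Ent. The causes were not tested.

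With the replicate number as a block (replicate block) 6 members passed 0.001 from IBA to LT (11 without it) and 2 were lower from ET to LT at 0.05 (6 without it). Of 26 pairs of same-numbered libraries 6 had deviations correlated above 0.1 (r from -0.26 to 0.23). The 2 LT libraries had values of equal size and opposite sign (0.1496 and -0.1496 with SA replicate 1), so the signs are in part fixed. These values thus cannot decide whether same-numbered libraries share more than a number, which was not tested.

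With each library left out in turn, members called at 0.001 ranged from 9 to 17 among the 5 states, from 1 (without LT replicate 1) to 12 from IBA to LT and from 8 to 13 from warm to torpid, and stayed at 0 in the 4 successive steps. At 0.05 the members higher ranged from 1 (without IBA replicate 1) to 10 from IBA to Ent, 4 to 6 from Ent to ET, 7 to 9 from IBA to LT and 11 to 15 from warm to torpid. Those lower ranged from 0 (without LT replicate 1) to 7 from ET to LT, 7 to 13 from IBA to LT and 6 to 7 from warm to torpid. Rpl22l1 from IBA to LT, not called, ranged from -0.55 to 0.048 and turned its sign without LT replicate 1. Over 54 values of named members, 986 of 1109 alternative values kept direction and side of the threshold, 118 kept direction only, 1 newly passed and 4 turned. Of the 986, 658 came from fits with 1 library left out, many of them a library outside the comparison. With season as a covariate 20 values kept both and 9 kept direction only, and with the replicate block 46 and 8. Levels without division by length put Rpl9 first and Rps29 at rank 11. An alternative on 5′ TOP starts was not run, since no sequence was used here. With 2 LT libraries, leaving out 1 leaves a lone library assumed to vary like the other groups.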

Other observations

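Outside the name rule, 8 further units carried a ribosomal protein name with a suffix, a pseudogene name or a longer symbol, each merged with other genes, so their reads cannot be given to 1 gene. The unit of an RPL21-like gene and Cast had a mean of 140 ± 16.4 CPM (SD, n = 3) in IBA and 236 ± 4.32 (n = 2) in LT (log2 0.75, edgeR adjusted p = 0.000762). The unit that holds RPL41 with Esyt1, Zc3h10, Pa2g4 and Erbb3 went from 341 ± 22.1 to 582 ± 3.5 CPM (log2 0.77, edgeR adjusted p = 0.0123), and that of Helq with an RPL39-like gene from 37.8 ± 5.26 to 56.1 ± 12.1 CPM (log2 0.57, adjusted p = 0.0239). The unit of Rpl36al and Dnaaf2 had means of 79.1 ± 5.13 CPM in IBA and 72.8 ± 1.2 in LT and did not pass the test (log2 -0.12, adjusted p = 0.599).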
